A study of Danio rerio with 6 samples.

Results

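The genes described here set up and read the gradient of bone morphogenetic protein (BMP) signalling along the dorsoventral axis of the zebrafish embryo: the ligands bmp2b and bmp4, the inhibitors chrd, szl and bambia, and the ventral homeobox genes vox, ved and vent. They were taken by name, as every probe set that the array's annotation gives these symbols or an older alias of them. All 8 genes were on the array, 7 with 1 probe set and vent with 2, out of 8793 named genes, and they account for 9 of 15502 probe sets that are not Affymetrix controls.

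RNA of whole embryos of the TL strain (Danio rerio) was measured on 6 Affymetrix zebrafish arrays. At 21 hours post-fertilization (hpf) there were 2 arrays of embryos that had received a morpholino against Spt5, 2 of embryos with a commercial standard control morpholino and 1 of untreated embryos, and 1 further array held untreated embryos at 5 hpf. Both morpholinos carried carboxyfluorescein and were given at about 2.5 pmol as the embryos entered cleavage, so the injection, the dye and the dose are common to the Spt5 and control morpholino groups. Spt5, the product of supt5h, is a subunit of the DSIF complex that binds RNA polymerase II and acts in promoter-proximal pausing and in elongation, and the stated aim was to find its targets.

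A morpholino is a synthetic oligomer that blocks an RNA by pairing with it. The Spt5 morpholino is printed because its sequence is what sets the Spt5 morpholino embryos apart from the control morpholino embryos, and its place on the supt5h RNA is not stated in the labels:
Spt5 morpholino: gtttctctacagtctgtcgctcctg

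BMP ligands bind paired receptor kinases, which phosphorylate Smad proteins that enter the nucleus and switch on target genes. In the zebrafish gastrula, BMP activity is high ventrally, where it maintains vox, ved and vent, repressors of dorsal organizer genes, and low dorsally, where the organizer secretes Chordin, the product of chrd, which keeps ligands from their receptors. Sizzled, the product of szl, is itself induced by BMP and protects Chordin from cleavage, and bambia encodes a receptor-like membrane protein without a kinase domain that dampens the signal. At the age of 21 hpf the gastrula is over, the tail bud is still extending, and BMP genes are used in the tail, the epidermis, the fin fold, the heart and the eye.

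The deposited intensities had medians of 26.8 and 36.1 in the Spt5 morpholino arrays, 32.4 and 43.8 in the control morpholino arrays, and, without injection, 40.1 at 21 hpf and 18.1 at 5 hpf, so intensities are given as deposited and differences on a log2 scale after quantile normalization. The ratio of the 3′ to the 5′ probe sets of the actin gene acta1 can rise where RNA is broken or copied incompletely. It was 6.94 and 6.99 with the Spt5 morpholino, against 9.91 and 9.61 with the control morpholino. Among untreated embryos it stood at 7.59 for 21 hpf and at 1.96 for 5 hpf. How strong the acta1 signal was at each age was not examined, so these values do not compare RNA quality between ages. The corresponding gapdh ratio was lower on every array. It was 1.39 and 1.42 for the Spt5 morpholino arrays, and 1.70 and 1.76 for the control morpholino arrays. The untreated arrays had gapdh ratios of 1.24 (21 hpf) and 0.95 (5 hpf). The size of the ratio thus depended on the gene, so the actin values alone do not measure how far RNA was broken. Both ratios were nonetheless higher on each control morpholino array than on any other array, so this difference goes with the morpholino groups. The supt5h signal differed by 0.05 ± 0.14 between the morpholinos (log2, SE; 95% interval −0.31 to 0.41; adjusted p = 0.804), which does not test a block of its translation. The untreated ages had 1 array each. Of all 9294 probe sets measured at either age, 30.2% were at least 2-fold higher at 21 hpf and 32.8% at least 2-fold lower. Of 17 epidermal and enveloping layer genes measured at either untreated age, 15 were at least 2-fold higher at 21 hpf and 1 lower. Among them the epidermal keratin krt5 was at least 61.1-fold higher. Of 8 notochord and hatching gland genes, 6 were at least 2-fold higher at 21 hpf. The 1 lower gene was noto, a gene of the organizer and early notochord, at least 5.05-fold lower.

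Between the morpholinos, vox, ved, bmp2b and bambia were higher with the Spt5 morpholino, 1.66-fold for bambia to 4.55-fold for ved. These 4 were the members of which at least 1 control morpholino array reached, after normalization, the intensity of 32 (log2 5) that a test required. Of all 8457 probe sets tested 24.3% were called higher and 23.0% lower, so a change as such was common in this comparison. That balance depended on the scaling, since 305 were higher and 1350 lower as deposited and 910 higher and 3516 lower with centring on spike-in controls. szl and both probe sets of vent were called higher too, but only the Spt5 morpholino arrays reached the floor after normalization, so they had to differ in order to be tested and their calls are given as descriptions. bmp4 and chrd were too dim for a test. A fold is written as "at least" where every array of the lower group lay under that floor. Whole embryos were extracted, and fewer cells of a type and less RNA per cell cannot be told apart. The labels do not say that the replicates came from separate clutches, so the p-values measure only how far these arrays scatter, which may be technical scatter. After normalization both Spt5 morpholino arrays lay above both control morpholino arrays for vox, ved, bmp2b and bambia, as for 40.5% of all probe sets tested, and likewise for the dimmer members.

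The ligand bmp2b, which with Bmp7 forms the active gastrula ligand, had deposited intensities of 135.1 and 143.1 in the Spt5 morpholino arrays, 67.5 and 67.4 in the control morpholino arrays, 69.2 in the untreated array at 21 hpf and 123.3 in the untreated array at 5 hpf. Both Spt5 morpholino arrays lay above both control morpholino arrays and near the level of untreated embryos at 5 hpf. On the normalized log2 scale bmp2b averaged 7.22 ± 0.19 with the Spt5 morpholino, against 5.94 ± 0.29 with the control morpholino (SD, n = 2 each), a 2.43-fold difference (log2 1.28 ± 0.18 SE; adjusted p = 0.00453, limma). Without the filter on dim probe sets, the adjusted p was 0.0639.

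The ligand bmp4, used ventrally in the gastrula and later in heart, eye and tail, was dim. It had deposited intensities of 30.1 and 31.5 in the Spt5 morpholino arrays, 26.5 and 37.0 in the control morpholino arrays, 42.1 in untreated embryos at 21 hpf and 1.7 in those at 5 hpf. The injected groups overlapped as deposited, and 1 of the 4 arrays reached the floor after normalization, so bmp4 was not tested between the morpholinos. Its normalized means of 5.09 ± 0.25 with the Spt5 morpholino, against 4.83 ± 0.03 with the control morpholino (SD, n = 2 each), differed by 0.26 (95% interval −0.25 to 0.77).

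Among the inhibitors, szl had deposited intensities of 48.8 and 69.9 in the Spt5 morpholino arrays, 18.9 and 30.8 in the control morpholino arrays, 7.6 in untreated embryos at 21 hpf and 6.6 in those at 5 hpf. The Spt5 morpholino arrays were the 2 that stood above the floor. szl was at least 1.99-fold higher with the Spt5 morpholino (log2 means 5.99 ± 0.08 and 4.44 ± 0.16; adjusted p = 0.00130, limma).

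The pseudoreceptor gene bambia had deposited intensities of 196.8 and 311.7 in the Spt5 morpholino arrays, 142.4 and 204.6 in the control morpholino arrays, 196.2 in untreated embryos at 21 hpf and 81.3 in those at 5 hpf. The injected groups overlapped as deposited and separated after normalization. The difference was 1.66-fold (log2 0.73 ± 0.14 SE; adjusted p = 0.0129, limma), the smallest among the tested members, and it missed the threshold as deposited (0.54, adjusted p = 0.257) and without the filter (adjusted p = 0.0989).

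chrd had deposited intensities of 33.1 and 29.1 in the Spt5 morpholino arrays, 15.6 and 16 in the control morpholino arrays, 11.8 in untreated embryos at 21 hpf and 24.8 in those at 5 hpf. Both Spt5 morpholino arrays lay above both control morpholino arrays, but 1 array reached the floor after normalization and chrd was not tested. Its normalized means were 5.09 ± 0.42 with the Spt5 morpholino, against 3.84 ± 0.32 with the control morpholino, and in the fit without a filter the adjusted p was 0.103.

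vox, a homeobox repressor of organizer genes, had deposited intensities of 380.5 and 451.1 in the Spt5 morpholino arrays, 152.6 and 189.0 in the control morpholino arrays, 135.0 in untreated embryos at 21 hpf and 206.8 in those at 5 hpf. Both Spt5 morpholino arrays stood above every other array, the untreated array at 5 hpf included. vox averaged 8.80 ± 0.07 with the Spt5 morpholino, against 7.31 ± 0.02 with the control morpholino, a 2.80-fold difference (log2 1.49 ± 0.09 SE; adjusted p = 0.00107, limma).

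ved, which acts redundantly with vox, had deposited intensities of 220.7 and 239.9 in the Spt5 morpholino arrays, 60.0 and 59.5 in the control morpholino arrays, 20.2 in untreated embryos at 21 hpf and 22.1 in those at 5 hpf. The Spt5 morpholino arrays were highest, the control morpholino arrays lay between, and both untreated arrays were below 32 as deposited. The difference of 4.55-fold between the morpholinos was the largest among the members with a fold (log2 2.19 ± 0.18 SE; normalized means 7.95 ± 0.17 and 5.76 ± 0.30; adjusted p = 0.00139, limma).

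The first vent probe set had deposited intensities of 31.2 and 45.0 in the Spt5 morpholino arrays, 15.6 and 32 in the control morpholino arrays, 21.5 in untreated embryos at 21 hpf and 11 in those at 5 hpf. The second had 49.2 and 62.4 in the Spt5 morpholino arrays, 27.3 and 31.7 in the control morpholino arrays, 18.5 in untreated embryos at 21 hpf and 7.5 in those at 5 hpf. Deposited intensities of the injected groups overlapped in the first and not in the second. After normalization the first was at least 1.29-fold and the second at least 1.89-fold higher with the Spt5 morpholino (adjusted p = 0.0118 and 0.00205, limma). The first missed the threshold as deposited (adjusted p = 0.0828) and without the filter (0.0968). vox and vent are neighbouring genes in the RefSeq gene table of assembly GRCz12tu.

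**Figure D1:**
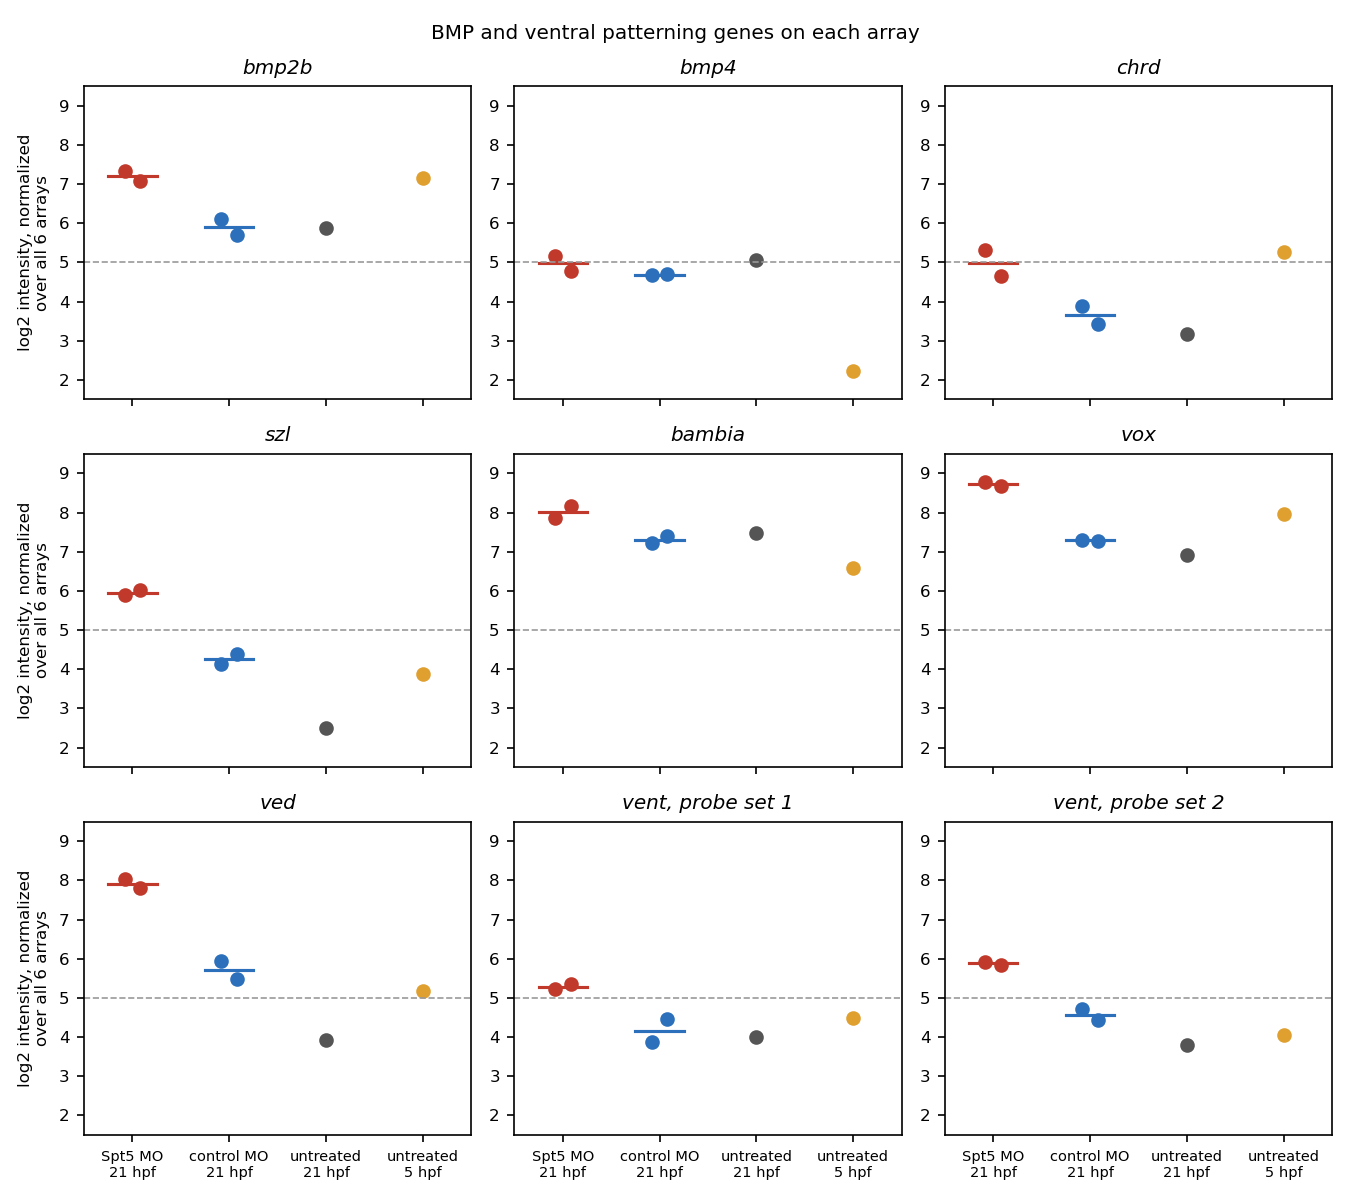
Log2 intensity of each member's probe set on each of the 6 arrays, quantile normalized over all of them; points are single arrays, grouped by treatment and age, short bars are group means and the dashed line marks log2 5. Both Spt5 morpholino arrays stand above both control morpholino arrays for every probe set shown. Normalized over the morpholino arrays, this held for 40.5% of all probe sets tested. vox and bmp2b are again high in untreated embryos at 5 hpf.

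The Spt5 morpholino was also set against the untreated embryos of the same age, with the same Spt5 morpholino arrays and 1 untreated array. vox was higher by 1.85 ± 0.12 (log2, SE; adjusted p = 0.00134, limma), ved at least 7.84-fold (adjusted p = 0.00104) and szl at least 2.04-fold (adjusted p = 7.94e-04). bmp2b was higher by 1.29 ± 0.22 (adjusted p = 0.00924), with an adjusted p of 0.0597 as deposited and 0.0832 without the filter. The vent probe sets were at least 1.33-fold and at least 1.95-fold higher (adjusted p = 0.0169 and 0.00161), and the first of them missed the threshold as deposited (adjusted p = 0.158), with centring on spike-in controls (0.0526) and without the filter (0.110). bambia differed by 0.55 ± 0.18 (adjusted p = 0.0584) and bmp4 by −0.08 ± 0.17 (adjusted p = 0.743), neither past the threshold. szl and vent passed the filter through the Spt5 morpholino arrays alone and had to be higher. Of the other 5 tested members, vox, ved and bmp2b were called higher, where 23.0% of 8701 probe sets were called higher and 20.9% lower (255 higher and 1270 lower as deposited).

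The control morpholino was also set against untreated embryos at 21 hpf. This contrast joins injection, dye and control oligomer and rests on 1 untreated array, so it does not measure injection as such. Among 8701 probe sets 1.75% were called higher and 1.13% lower. ved was at least 1.74-fold higher with the control morpholino (log2 means 5.80 ± 0.30 with the control morpholino and 4.15 in the untreated array; adjusted p = 0.0389, limma), and the adjusted p ran from 0.0588 to 0.0908 when any 1 of the 4 morpholino arrays was left out. szl was below the floor in both groups, with log2 values of 4.49 and 2.78, so no fold is given (adjusted p of the fit = 0.0178). vent was also below the floor in both groups, with log2 values of 4.39 and 4.24 for the first probe set (adjusted p = 0.752) and 4.78 and 4.03 for the second (adjusted p = 0.0728). vox differed by 0.37 (95% interval 0.07 to 0.67; adjusted p = 0.156), bmp2b by 0.02 (−0.53 to 0.58), bambia by −0.18 (−0.64 to 0.28) and bmp4 by −0.33 (−0.77 to 0.11), none past the threshold. ved was thus above untreated embryos in both injected groups, and the part of injection, dye or oligomer in its level was not tested.

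**Figure D2:**
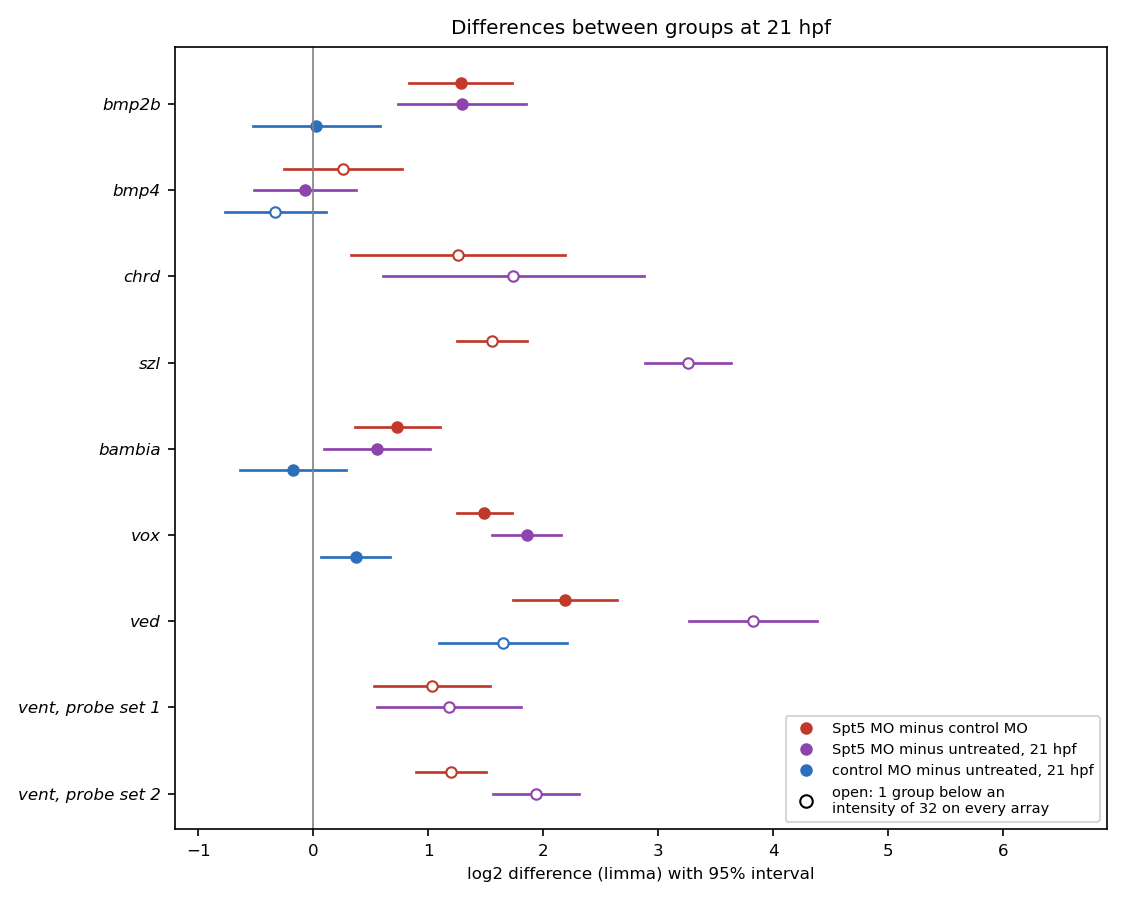
Log2 differences of the members' probe sets with 95% intervals for the Spt5 morpholino against the control morpholino, the Spt5 morpholino against untreated embryos and the control morpholino against untreated embryos at 21 hpf. Open symbols mark contrasts in which 1 group was below an intensity of 32 after normalization. The differences of the Spt5 morpholino from the control morpholino run up to 2.19 for ved, and 3 of the 5 intervals of the control morpholino against untreated embryos hold 0; contrasts with both groups below 32 are not drawn.

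Between the untreated ages, with 1 array each and no test, vox was 2.03-fold lower at 21 hpf than at 5 hpf (log2 6.89 and 7.91) and bmp2b 2.51-fold lower (5.79 and 7.12). bambia was 1.84-fold higher at 21 hpf (7.43 and 6.55). These sizes depended on the scaling: vox differed by −0.61 as deposited and −1.75 with median centring, bmp2b by −0.83 and −1.97, and bambia by 1.27 and 0.13. chrd was at least 1.08-fold lower at 21 hpf. Normalized over the untreated arrays alone, szl, ved, vent and bmp4 were below the floor at both ages, so no fold is given. Normalized over all 6 arrays, bmp4 stood just above it at 21 hpf (5.06) and ved at 5 hpf (5.17). Of all 9294 probe sets measured at either age, 30.2% were at least 2-fold higher and 32.8% at least 2-fold lower at 21 hpf by their measured values, those below the floor included. Of the tested members with a fold between ages, vox and bmp2b were thus lower at the later age and higher with the Spt5 morpholino, while bambia was higher in both.

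The rest of the pathway was described by 6 lists: BMP ligands, receptors, Smads with their regulators, inhibitors with their regulators, ventral and BMP target genes, and dorsal organizer and dorsal genes. Together they held 76 tested genes, of which 39 were higher and 4 lower with the Spt5 morpholino (51.3% and 5.26%), with a median difference of 0.32 against 0.04 over all probe sets tested. Without the 8 members the count was 33 higher and 4 lower of 70. With every tested probe set of the listed genes counted, 41 of 87 were higher and 6 lower. Of the 76 genes, 7 passed the filter through the Spt5 morpholino arrays alone and all 7 were higher. Among the 69 with a control morpholino array above the floor, 32 were higher and 4 lower, or 46.4% higher against 21.4% of such probe sets over the whole array. The 69 include vox, ved, bmp2b and bambia, all called higher. Members and lists were chosen with earlier results of these data known, so this contrast is a description and not a test. As deposited 11 were higher and 3 lower, beside 305 higher and 1350 lower of all 8485 probe sets tested. With centring on spike-in controls 22 were higher and 13 lower, beside 910 higher and 3516 lower of all 8480. These counts over all probe sets also stand beside those of each list below. The lists' median was 0.09 as deposited, where that of all probe sets was −0.21. It was 0.02 with spike-in centring, where that of all was −0.27. The number of genes tested changed with the fit, and the counts given next are of 71, 69 and 106 tested genes in turn. With no filter 342 of all 15502 probe sets were higher. Leaving out an array also lowered the number tested in some of the lists below. The count of higher genes was 20 without Spt5 morpholino array 1, 19 without Spt5 morpholino array 2 and 7 with no filter.

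Of 5 tested ligands 3 were higher and 1 lower (median 0.67). The higher non-members were bmp3, a divergent ligand (0.91 ± 0.12; adjusted p = 0.00377), and bmp7a, the partner of Bmp2b in the gastrula heterodimer, which was at least 1.41-fold higher (adjusted p = 0.00555, limma). bmp7a reached the floor on the Spt5 morpholino arrays alone, so it had to be higher in order to be tested, and its adjusted p was 0.450 as deposited and 0.0503 with spike-in centring. bmp5 fell by 0.62 ± 0.10 (adjusted p = 0.00732). The ligands admp, bmp2a, bmp6, bmp15, gdf6b and gdf7 were below the floor on every array at 21 hpf. gdf6a, a ligand of the dorsal eye, differed by −0.20 (adjusted p = 0.194). With spike-in centring 2 ligands were higher and 2 lower, and as deposited 1 was higher and 1 lower.

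Of 7 tested receptor genes 4 were higher and 0 lower at the threshold (median 0.31), led by the type I receptor genes bmpr1ab (0.70 ± 0.13; adjusted p = 0.00995, limma) and acvr1l (0.40 ± 0.09; adjusted p = 0.0196). The type II receptor gene acvr2ba was higher by 0.34 ± 0.10 (adjusted p = 0.0375). With spike-in centring 1 receptor gene was higher and 2 lower, beside 910 higher and 3516 lower of all 8480 probe sets tested. With that centring the median was −0.03, and bmpr1ba, another of the 4, differed by −0.03 in place of 0.31. As deposited 0 were higher and 0 lower, and leaving out any 1 array left 0 or 1 receptor gene higher.

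Of 9 tested Smads and regulators 4 were higher and 1 lower (median 0.44). smad7, an inhibitory Smad, was higher by 0.86 ± 0.10 (adjusted p = 0.00303, limma), and the signal-transducing smad1 and smad5 by 0.66 ± 0.13 and 0.65 ± 0.17 (adjusted p = 0.0133 and 0.0293). skib, of the Ski family of Smad corepressors, fell by 0.37 ± 0.10 (adjusted p = 0.0344). Of these, smad7 was at 77.7 and 97.6 as deposited with the Spt5 morpholino, against 52.1 and 62.2 with the control morpholino. None of the list was called on the deposited scale, and 1 was higher and 2 lower with spike-in centring. Against the untreated array at 21 hpf, the Spt5 morpholino differed by 0.21 for smad1, 0.80 for smad5 and 0.48 for smad7. The count of 4 higher was 1 without Spt5 morpholino array 1 and 2 without control morpholino array 1.

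Of 8 tested inhibitors and regulators 5 were higher and 0 lower at the threshold (median 0.50). Beside szl and bambia these were fstl1b, of the follistatin-like family (0.74 ± 0.15; adjusted p = 0.0139, limma), nog1, a noggin gene (0.70 ± 0.15; adjusted p = 0.0175), and bmper, a crossveinless-2 homologue that binds BMPs (0.31 ± 0.09; adjusted p = 0.0397). As deposited 1 of the 8 was called and with spike-in centring 3 were. The count of 5 higher was 2 without Spt5 morpholino array 1, 1 without Spt5 morpholino array 2 and 3 without control morpholino array 2.

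Of 28 tested ventral and BMP target genes 14 were higher and 1 lower (median 0.29). tp63 and msx3 were not called by their brightest probe sets (−0.29 for each). Another probe set of each was called lower (−0.558 and −0.665), while that of vent was called higher. Beside vox, ved and vent, the largest differences were in foxi1, a gene of otic placode and ionocyte development, at least 2.32-fold higher (adjusted p = 0.00229, limma), gata2a (1.38 ± 0.14; adjusted p = 0.00225) and gata3 (1.18 ± 0.09; adjusted p = 0.00133), both GATA factors of ventral ectoderm. Of these, foxi1 reached the floor on the Spt5 morpholino arrays alone and so had to be higher in order to be tested, as did eve1, dlx6a and vent. gata2a was at 137.7 and 199.8 as deposited with the Spt5 morpholino, against 58.4 and 94.2 with the control morpholino, and both Spt5 morpholino arrays lay above both control morpholino arrays. klf2b, a Krüppel-like factor gene, fell by 0.55 ± 0.15 (adjusted p = 0.0363). Among the Id genes, direct BMP targets in many tissues, only id3 was called, higher by 0.79 ± 0.10 (adjusted p = 0.00410, limma). Its adjusted p was 0.221 as deposited and 0.00931 with spike-in centring. id1 differed by 0.03 (95% interval −0.20 to 0.26, adjusted p = 0.827). id2a, id2b and id4 differed by 0.22, 0.13 and −0.16 (adjusted p = 0.155, 0.583 and 0.369). As deposited 9 genes of the list were higher and 2 lower, and with spike-in centring 10 were higher and 6 lower, with a median of −0.03. The count of 14 was 9 without Spt5 morpholino array 1 and 7 without Spt5 morpholino array 2.

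Of 19 tested dorsal genes 9 were higher and 1 lower (median 0.28). otx2a, of the Otx family of head and brain genes, was at least 1.27-fold higher (adjusted p = 0.0104, limma), but it too was tested only through the Spt5 morpholino arrays, and against untreated embryos it differed by 0.27 (adjusted p = 0.445). noto was higher by 0.94 ± 0.12 (adjusted p = 0.00356) and foxa3, of the FoxA family of axial mesoderm and endoderm factors, by 0.86 ± 0.10 (adjusted p = 0.00269). zic2a, of the Zic family of neural plate genes, fell by 0.30 ± 0.09 (adjusted p = 0.0463). Genes of the early organizer, among them gsc, dharma, ndr1, ndr2, lhx1a and frzb, were below the floor on every array at 21 hpf. As deposited none of the list was called, and with spike-in centring 5 were higher and 1 lower. The count of 9 was 5 without Spt5 morpholino array 1 and 4 without Spt5 morpholino array 2.

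**Figure D3:**
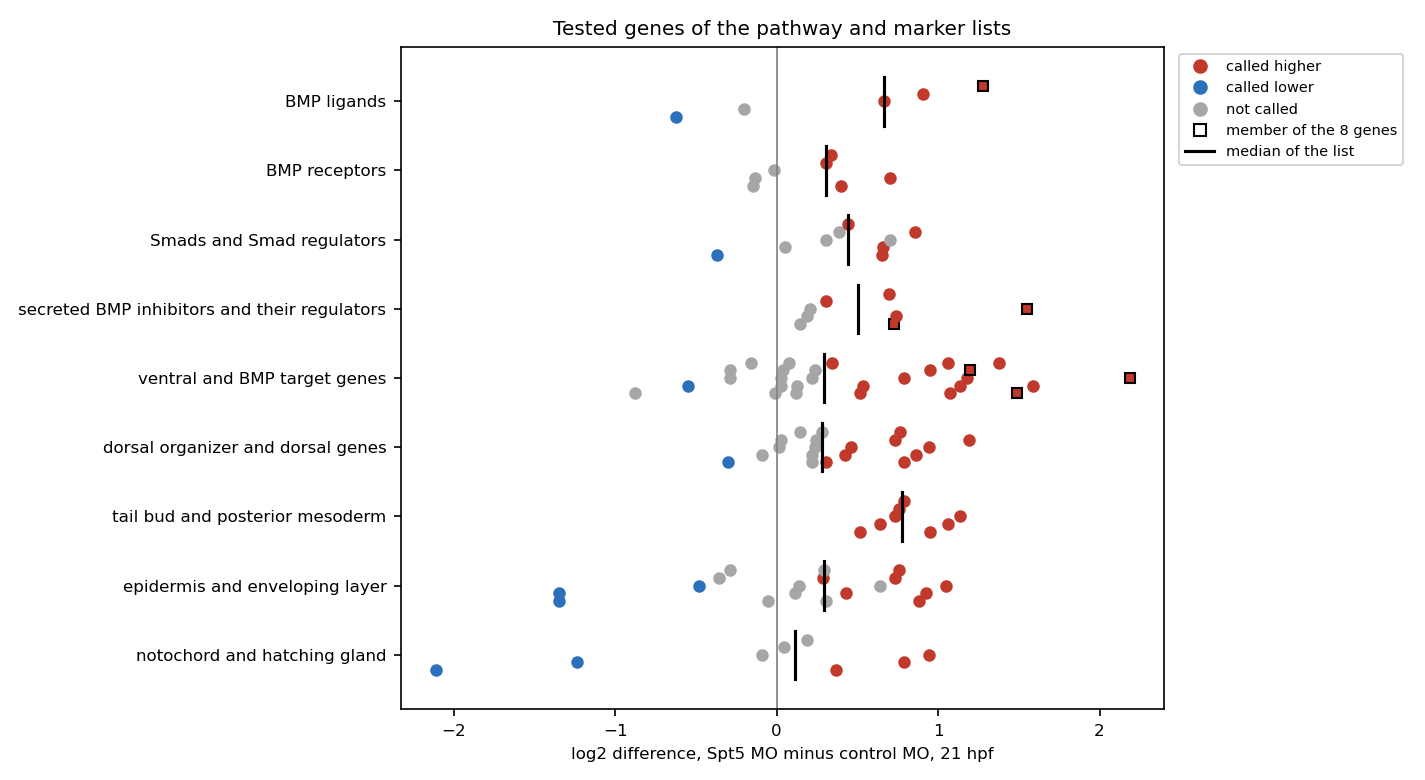
Log2 differences, Spt5 morpholino over control morpholino, of the tested genes of each pathway and marker list; each point is a gene, squares are members, red and blue are genes called higher and lower, grey those not called, and the black bar is the list's median. The list medians run from 0.12 for notochord and hatching gland genes to 0.78 for tail bud genes. With spike-in centring those of receptors, ventral genes, dorsal genes, epidermis and notochord fall below 0, where the median of all probe sets tested is −0.275.

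Markers of tail bud, epidermis, enveloping layer, notochord and hatching gland were counted in the same comparison. Of all 8457 probe sets tested there, 24.3% were called higher and 23.0% lower. As deposited 305 were higher and 1350 lower, and with spike-in centring 910 higher and 3516 lower. All 8 tested tail bud and posterior mesoderm genes were higher with the Spt5 morpholino (median 0.78; 7 with spike-in centring, 2 as deposited, and 4 of 6 without Spt5 morpholino array 2), for example tbx16 (1.14 ± 0.10; adjusted p = 0.00160, limma) and cdx4 (1.06 ± 0.09; adjusted p = 0.00147). Over all 12 genes of this list on the array, untested ones included, the summed normalized intensity was 2561 and 2631 in the Spt5 morpholino arrays. It was 1488 and 1442 in the control morpholino arrays and 1095 in untreated embryos at 21 hpf. Such sums are led by their brightest genes, here cdx4 and msgn1, with log2 means of 9.9 and 9.8 in the Spt5 morpholino arrays. Of the 8, cdx4, eve1 and tbx6 are also counted among the ventral genes and tbxta and fgf8a among the dorsal genes, and eve1 was tested only through the Spt5 morpholino arrays. her1, cdx1a, hoxa13b and hoxd13a were below the floor on every array at 21 hpf and were not tested. Their normalized means differed both ways between the morpholinos, by 0.52 and 1.44 for her1 and cdx1a and by −0.27 and −0.64 for hoxa13b and hoxd13a.

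Of 18 tested epidermal and enveloping layer genes 7 were higher and 3 lower (median 0.29), beside 24.3% higher and 23.0% lower of all probe sets tested. With spike-in centring 3 were higher and 6 lower, and as deposited 0 were higher and 2 lower. Of the 7, cldnf reached the floor on the Spt5 morpholino arrays alone, so it had to be higher in order to be tested. Leaving out any 1 array left 3 to 5 higher. Over all 19 genes of this list on the array the sums were 26935 and 27055 in the Spt5 morpholino arrays. They were 22932 and 23192 in the control morpholino arrays and 21549 in untreated embryos at 21 hpf. Among them icn and icn2, calcium-binding proteins of the surface layer, each fell by 1.35, while krt97, a keratin gene, was higher by 1.05 ± 0.13 (adjusted p = 0.00330). Of 8 notochord and hatching gland genes 3 were higher and 2 lower, beside the same shares (2 and 2 with spike-in centring, 0 and 2 as deposited). Their sums were 3166 and 3189 with the Spt5 morpholino, against 3295 and 3515 with the control morpholino and 3186 in untreated embryos at 21 hpf. These sums are led by cd63 and xbp1, with log2 means of 10.1 and 10.2 in the Spt5 morpholino arrays. The lower genes were the cartilage and notochord collagen genes col2a1a and col9a1b, which fell by 1.24 and 2.11. The part of tail bud, epidermis and the actin and gapdh ratios in the members' differences was not tested.

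By age, 31 of the 39 pathway genes called higher with the Spt5 morpholino reached the floor in untreated embryos of either age. By measured values 16 of these were at least 2-fold higher at 21 hpf than at 5 hpf and 7 at least 2-fold lower (51.6% and 22.6%), and with dim values raised to the floor 11 and 6 were (35.5% and 19.4%). vox and bmp2b were among the lower ones on both counts. Of 29 pathway genes not called, 65.5% were at least 2-fold higher and 13.8% lower by measured values (51.7% and 13.8% with dim values at the floor). Over all 1779 probe sets called higher and measured at either age, 32.7% were at least 2-fold higher and 27.6% lower (24.5% and 24.3%).

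Profiles over the 6 arrays, centred on each gene's own mean, were compared by the root mean square (RMS) difference of their log2 values, and the nearest named genes are given as a description. Only probe sets tested between the morpholinos were searched. Nearest to vox were ell2, which encodes a transcription elongation factor, at 0.097, lmbrd2b at 0.105 and pierce1 at 0.119. Nearest to szl was egln3, of the prolyl hydroxylase family that acts on hypoxia-inducible factor, at 0.281, and nearest to ved was si:dkey-85k7.7 at 0.322, followed by egln3 at 0.404. egln3 and parp3 were among the 3 nearest genes of both szl and ved. On some arrays szl, ved and vent lay below log2 5, so their distances rest in part on dim values. The vent probe sets were nearest to mettl9 (0.10) and si:dkey-177p2.6 (0.133), bmp2b to kctd10 (0.166) and bambia to atxn7l3b (0.06). The profiles of szl and ved had the most distant nearest neighbours among the tested members.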

How the data were processed

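Per the labels, groups were taken from the sample titles and each array received biotin-labelled cRNA made from 5 µg of total RNA. The deposited values are linear probe set intensities. The submitters' processing notes name GCRMA, with no version, settings or later scaling stated. Since the distributions of the deposited intensity columns differ, log2 values were quantile normalized among the arrays of each fit: the 4 morpholino arrays, the 5 arrays at 21 hpf, or the 2 untreated arrays for ages. These log2 values were computed here from the deposited intensities.

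Of 15617 probe sets 115 Affymetrix controls were set aside. Tests covered probe sets that reached log2 5, or an intensity of 32, on 2 or more arrays in the fit, and folds were shown for ages where 1 array reached it. Tests were two-sided, run in limma 3.58.1 (lmFit, eBayes; R 4.3.3), with Benjamini-Hochberg adjustment over all probe sets tested and a threshold of 0.05, with 2 residual degrees of freedom for each probe set. The lone untreated array was assumed to vary like the others. Where a whole group was dim, its values were raised to log2 5 to give a lower limit for the fold. The number of arrays limits the precision, and the median within-group SD was 0.11.

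In the platform annotation 10802 probe sets have 1 symbol, 135 several and 4680 none; 10718 symbols were updated through the RefSeq table of assembly GRCz12tu and 84 kept. In lists a gene was represented by its brightest probe set on average, and for the pathway lists every tested probe set was also counted. Named genes are all members, the called non-members with the 3 largest differences each way in each pathway list, and the 3 named genes nearest in profile to each tested member; the other genes named were chosen after their values were seen. Members and lists were chosen with earlier results of these data known. Alternatives were values as deposited, median centring, centring on 18 bacterial spike-in probe sets, no filter, a floor of log2 6, an offset of 16, a replicate block, a fit over 5 arrays and leaving out each array. The procedure was tested on simulated data.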

Additional observations from a re-analysis of the deposited data

How the results depend on the processing

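Between the morpholinos, the 7 tested probe sets of the members kept a positive difference under every alternative in which they were tested. Of these values 70 also kept their side of the threshold and 5 lost the call, all given beside the genes concerned. Those of szl and both vent probe sets are descriptions, since in the main fit they had to be higher in order to be tested. vox ranged from 1.23 to 1.57 and ved from 1.89 to 2.40. Without either Spt5 morpholino array, or with a floor of log2 6, szl and vent were not tested. Over all probe sets, 305 were higher and 1350 lower as deposited, 910 higher and 3516 lower with spike-in centring, 342 higher and 532 lower without the filter, and 975 to 1612 higher and 1158 to 1463 lower with 1 array left out, in place of 2059 and 1942. For the pathway lists the counts were 11 higher as deposited, 22 higher and 13 lower with spike-in centring, and 7 higher and 0 lower without the filter (44 and 3 at an unadjusted p under 0.05, limma). They were 19 to 30 higher and 1 to 2 lower with 1 array left out. The replicate numbers are shared by both morpholino groups, but no label ties them, and arrays numbered alike deviated together with r = 0.254. With the replicate block 2304 probe sets were higher and 2135 lower, pathway genes were 41 higher and 7 lower, and no member's call changed.

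Against untreated embryos, the Spt5 morpholino had 255 probe sets higher and 1270 lower as deposited, 926 higher and 3408 lower with spike-in centring, 293 higher and 356 lower without the filter, and 1170 to 1957 higher with 1 array left out. bambia passed the threshold with median centring (adjusted p = 0.0134), a floor of log2 6 (0.0358), an offset (0.0322) and without Spt5 morpholino array 1 (0.0444), and bmp4 ran from −0.25 to 0.10 with 1 array left out. The control morpholino had 35 higher and 23 lower as deposited, 287 and 203 with a floor of log2 6, and 271 and 235 with an offset. It had 0 and 0 without the filter (1156 and 857 at an unadjusted p under 0.05, limma), and 2 to 8 higher and 0 to 2 lower with 1 array left out. Its bmp2b difference was −0.037 as deposited, −0.029 with spike-in centring and −0.18 to 0.23 with 1 array left out, and ved lost its call without the filter (adjusted p = 0.256). Between ages, 4292 probe sets were higher and 1705 lower as deposited. The causes of these differences were not tested. The floor on dim probe sets left bmp4 and chrd without a test between the morpholinos.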
